A study of Mus musculus with 4 samples.

Results

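The enzymes that write, maintain and erase DNA methylation were followed by their messenger RNA in 4 mouse pluripotent cell lines. The 9 genes were listed by name: the methyltransferases Dnmt1, Dnmt3a and Dnmt3b, the cofactors Dnmt3l and Uhrf1, the oxidases Tet1, Tet2 and Tet3, and the glycosylase gene Tdg. Every probe set annotated to 1 of these genes alone was used, which gave 20 of the 34945 single-gene probe sets among 45037 on the array. They covered 8 of the 9 genes. The 3 probe sets for Tdg also match Tdg pseudogenes, so no level is given for that gene.

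The cells derived by nuclear transfer were 3 embryonic stem cell (ESC) lines, NT-1, NT-2 and NT-3, each described as a subclone and taken from a cloned blastocyst (NT stands for nuclear transfer). Their donor was Adeno-1, an induced pluripotent stem cell (iPSC) clone that adenoviral vectors had reprogrammed from fibroblasts of the tail tip. The 3 lines and the clone all descend from that 1 clone, and the labels do not say whether the lines came from separate derivations. All 4 were grown with 15% serum and LIF on irradiated embryonic fibroblasts, and the feeders were reduced by preplating for 45 minutes. Each was measured on 1 Affymetrix array, so the 1 iPSC array has no replicate and the spread below is that between the 3 NT-ESC arrays, which may be technical.

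In mammals DNA is methylated mainly on the C of a CpG. DNMT3A and DNMT3B set new marks, helped by the catalytically inactive DNMT3L, while DNMT1 copies marks to the new strand after replication, guided there by UHRF1. TET enzymes oxidise the methyl group, and TDG cuts out the later oxidation products so that repair can restore an unmodified base. Mouse ESCs express both sides of this system, and Dnmt3b is also known as a gene that increases when naive cells move to the primed epiblast state.

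Each deposited value looks like a log2 ratio, in which a probe set's log intensity is divided by the mean log intensity of its array. Levels below are log2 intensities rebuilt with that mean set to an assumed 7, and log2 differences scale with this choice. Levels of different probe sets are not set against each other, because each has its own affinity. Taking one probe set for each of 18193 genes, Pearson's r between pairs of arrays was 0.9951 to 0.9979, a description across genes that are not independent. NT-3 stood apart from the other arrays in limma's fit, but not under every setting. Limma called 47 of the 45037 probe sets for NT-3 against the other 3 arrays, and 0 for NT-1 or NT-2 set against the others in the same way, while 1505 and 1566 probe sets had an unadjusted p under 0.05 there. The 47 became 0 on the deposited log2 ratios or with any 1 of the other arrays left out, and 84 or 168 with 1 value per gene, from its brightest probe set or the mean of its probe sets. All 11 pluripotency markers were bright, meaning at or above the median level of all probe sets (6.83), and their mean levels were 12.09, 12.12 and 12.03 in NT-1, NT-2 and NT-3, against 12.05 in the clone. Of the 12 fibroblast and feeder markers 11 were bright too, with mean levels of 9.35, 9.48 and 9.27 in the lines and 9.32 in the clone. In such RNA from whole cultures, fewer cells of a type and less RNA per cell cannot be told apart. Of the markers of other lineages 1 of 6 primitive endoderm genes and 2 of 5 trophectoderm genes were bright. Each marker is counted by its brightest probe set, and 22517 of all 45037 probe sets were bright. Without detection calls, bright does not by itself mean expressed.

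For no probe set of the 8 genes did limma separate the NT-ESC lines from the iPSC clone (Benjamini-Hochberg adjusted over 45037 probe sets, smallest adjusted p = 0.849 among all of them). None of the 20 had an unadjusted p under 0.05 either, where 3.44% of all probe sets were higher and 2.36% lower at that limit. After quantile normalization 1 of them was, Dnmt3b 1418351_a_at (unadjusted p = 0.0426, adjusted p = 0.881, limma). The share called after adjustment was 0% over all probe sets. The mean differences of the 20 ran from -0.48 to 0.34 log2. All 3 NT-ESC lines lay above the clone for 4 of the 20 probe sets and below it for 6, against 23.8% and 27.5% of all probe sets, and these counts are near that background. Without NT-3, the remaining lines lay above the clone for 8 and below it for 9, where the background was 32.7% and 36.2%.

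**Figure D1:**
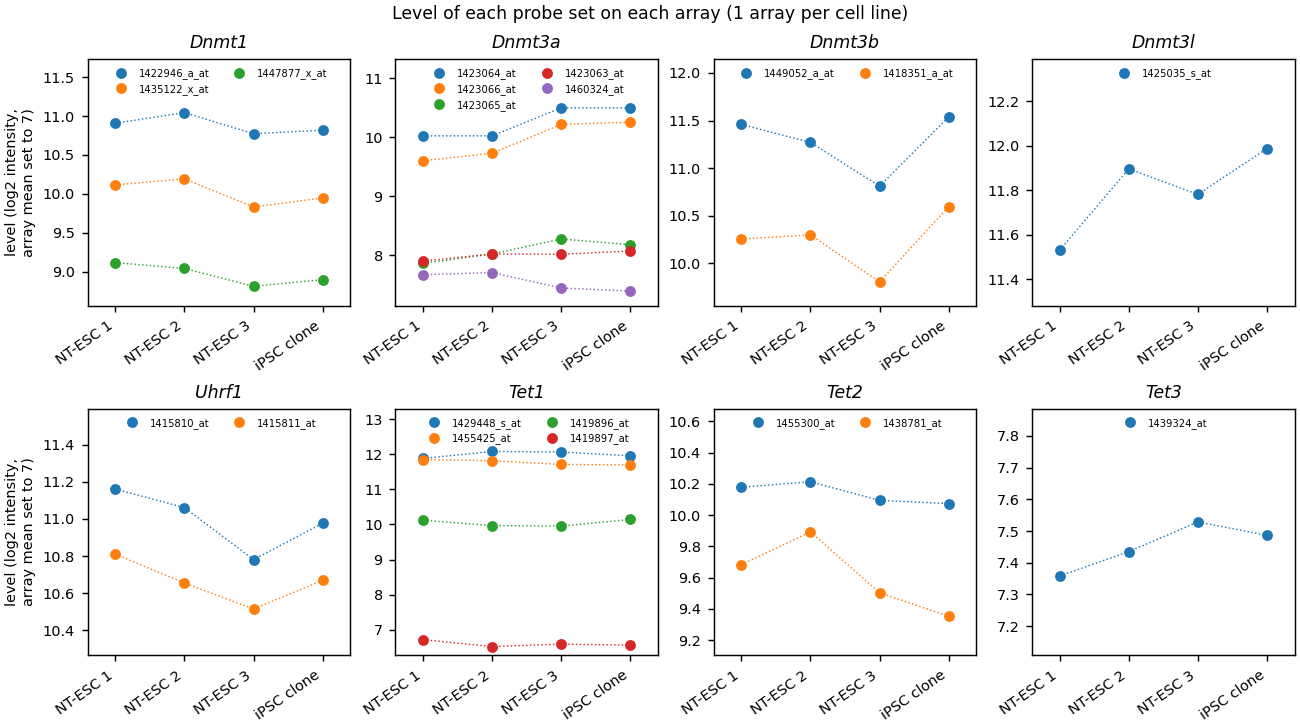
Level of each of the 20 probe sets (y axis, log2 intensity with the array mean set to 7, a separate scale for each gene) on the arrays of NT-ESC lines 1, 2 and 3 and of the iPSC clone (x axis). Each point is 1 array and the dotted lines only join points of 1 probe set. The lowest point of both Dnmt3b probe sets is NT-3, while the brighter pair of Dnmt3a probe sets is low in NT-1 and NT-2.

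Dnmt3b, a de novo methyltransferase, was lowest in NT-3 by both of its probe sets. Probe set 1449052_a_at stood at 11.46, 11.27 and 10.81 in NT-1, NT-2 and NT-3, against 11.54 in the clone. Probe set 1418351_a_at stood at 10.26, 10.30 and 9.80 in the lines, against 10.60 in the clone. The clone was the highest of the 4 arrays on each, and NT-3 lay clear of NT-1 and NT-2. Averaged over the lines, the differences from the clone were -0.36 ± 0.24 (SE, limma, adjusted p = 0.879) for 1449052_a_at and -0.48 ± 0.20 (limma, adjusted p = 0.849) for 1418351_a_at. The NT-3 array carried much of this: without it the differences were -0.17 and -0.32.

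Set against the clone alone, NT-3 differed by -0.73 and -0.79 log2 for the same Dnmt3b probe sets. These were the 2 of 19 bright probe sets of the 8 genes that were at least 1.5-fold lower in NT-3, a limit that 0.612% of 23217 bright probe sets reached in that pair; with 1 array a side there is no test. None of the 19 was 1.5-fold higher in NT-3, where 1.19% were. The fits of 1 line against the other 3 arrays were run because an earlier look at these data showed 1 line standing apart. Their p-values are therefore not independent of that look. In limma's fit of NT-3 against the other 3 arrays, which takes the spread of those 3 as its own, 1449052_a_at differed by -0.61 ± 0.12 (SE, adjusted p = 0.167) and 1418351_a_at by -0.58 ± 0.14 (adjusted p = 0.247). Both missed the threshold, which 0.104% of all probe sets passed. Their unadjusted p-values were 0.00159 and 0.00532 in that limma fit. Of the other 18 probe sets Uhrf1 1415810_at was also under 0.05 without adjustment, at 0.0261, where 4.04% of all probe sets were lower at that limit.

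Dnmt3a, the other de novo enzyme, had 5 probe sets that did not move together. Probe set 1423064_at stood at 10.02, 10.02 and 10.50 in NT-1, NT-2 and NT-3, against 10.50 in the clone. Probe set 1423066_at stood at 9.60, 9.73 and 10.22 in the lines, against 10.26 in the clone. On both, NT-1 and NT-2 lay together and low, and NT-3 lay with the clone, whereas for Dnmt3b NT-3 was the lowest array. Probe set 1460324_at ran the other way, at 7.67, 7.70 and 7.44 in the lines, against 7.39 in the clone.

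The mean differences of these 3 Dnmt3a probe sets were -0.32 ± 0.20, -0.41 ± 0.24 and 0.21 ± 0.12 (SE, limma, adjusted p = 0.876, 0.864 and 0.864). The other Dnmt3a probe sets had smaller mean differences, -0.13 ± 0.16 for 1423065_at and -0.09 ± 0.09 for 1423063_at (SE, limma, adjusted p = 0.934 and 0.914). Probe set 1423065_at was at 7.86, 8.02 and 8.27 in the lines, against 8.18 in the clone, and 1423063_at was at 7.90, 8.02 and 8.01, against 8.07. NT-1 was the lowest array for both of them. Between NT-1 and the clone the difference of 1423066_at was -0.65, the 1 of 19 bright probe sets of the 8 genes that was at least 1.5-fold lower there, where 0.108% of all bright probe sets were; none was 1.5-fold higher, against 0.367%. In NT-2 the same probe set differed by -0.53, and none of the 19 reached 1.5-fold in either direction, where 0.173% of bright probe sets were higher and 0.0777% lower. Both counts turn on the assumed array mean: with 6 none reached the limit in NT-1, and with 7.86 there were 2 in NT-2.

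Leaving NT-3 out, the Dnmt3a differences were -0.48 ± 0.07 for 1423064_at, -0.59 ± 0.09 for 1423066_at and 0.30 ± 0.07 for 1460324_at (SE, limma, adjusted p = 0.71 for each). These 3, with Dnmt3b 1418351_a_at and Tet2 1438781_at, were the 5 of 20 probe sets under an unadjusted p of 0.05 in that fit, 3 lower and 2 higher, where 2.39% of all probe sets were lower and 4.02% higher. None of the 20 was under that limit in limma's fit with NT-1 or NT-2 left out instead, or with all lines kept. The count of 5 therefore holds only for the fit without NT-3, and 3 of the 5 probe sets are readings of 1 gene, Dnmt3a. With 2 NT-ESC arrays against 1 there is 1 residual degree of freedom, and the lone iPSC array is assumed to vary like the lines.

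Dnmt3a is transcribed from more than one start, and the short form made from an internal start is known as the main one in mouse ESCs. The files do not say which form each probe set reads, so the split between probe sets cannot be tied to a start here. The 250 bases before 4 RefSeq starts (build GRCm38.p6, 5′ to 3′ on the gene's strand) are shown for the genes with the widest differences, with each CpG, the substrate of these enzymes, in capitals.
Dnmt3a first listed start, chr12:3806730-3806979, plus strand: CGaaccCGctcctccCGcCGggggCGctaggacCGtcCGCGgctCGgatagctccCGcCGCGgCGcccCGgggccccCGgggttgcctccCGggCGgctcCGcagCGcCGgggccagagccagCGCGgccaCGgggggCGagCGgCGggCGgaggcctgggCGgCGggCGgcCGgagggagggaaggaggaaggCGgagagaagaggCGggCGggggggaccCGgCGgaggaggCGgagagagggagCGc
Dnmt3a internal start, chr12:3891494-3891743, plus strand: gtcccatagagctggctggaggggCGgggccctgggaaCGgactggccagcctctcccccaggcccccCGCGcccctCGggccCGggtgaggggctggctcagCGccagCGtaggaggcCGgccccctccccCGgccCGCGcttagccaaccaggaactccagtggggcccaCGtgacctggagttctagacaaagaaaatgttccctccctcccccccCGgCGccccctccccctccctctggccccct
Dnmt3b, chr2:153649199-153649448, plus strand: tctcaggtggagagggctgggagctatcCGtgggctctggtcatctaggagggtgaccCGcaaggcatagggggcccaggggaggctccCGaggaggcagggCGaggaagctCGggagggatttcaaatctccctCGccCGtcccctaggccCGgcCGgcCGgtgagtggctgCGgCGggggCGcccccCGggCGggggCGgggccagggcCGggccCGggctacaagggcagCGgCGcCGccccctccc
Tet2, chr3:133544391-133544640, minus strand: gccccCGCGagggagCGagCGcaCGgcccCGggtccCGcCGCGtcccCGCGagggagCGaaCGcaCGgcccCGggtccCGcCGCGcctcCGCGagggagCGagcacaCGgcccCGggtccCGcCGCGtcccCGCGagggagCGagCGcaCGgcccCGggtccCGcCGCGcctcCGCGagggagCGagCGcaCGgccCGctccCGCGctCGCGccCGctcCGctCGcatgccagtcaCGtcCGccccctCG

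The window before the first listed Dnmt3a start held 38 CpGs and that before the internal start 15, against a median of 6 over 32851 promoter windows of the same length. The Dnmt3b window held 21 and the Tet2 window 51, more than 83.7% and 99.9% of all windows. The GC box GGGCGG, searched on both strands, was in all 4 of these windows and in 11 of the 16 windows of the 9 genes, while 32.7% of all promoter windows held it. The 3 Dnmt3l windows had 3 to 5 CpGs each. The TATA motif TATAAA was in none of the 16 and in 12.4% of all windows, again on both strands. Overlaps between motifs were not removed, and windows of one gene can overlap. These are counts of letters and were not related to methylation, which was not measured.

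Dnmt3l, the cofactor that stimulates DNMT3A and DNMT3B, was read by 1 probe set, 1425035_s_at. It stood at 11.53, 11.90 and 11.78 in NT-1, NT-2 and NT-3, against 11.99 in the clone. The clone was highest and NT-1 lowest, while NT-2 lay 0.09 below the clone. The mean difference was -0.25 ± 0.15 (SE, limma, adjusted p = 0.869). For NT-1 against the other 3 arrays, Dnmt3l and Dnmt3a 1423065_at were the 2 of 20 probe sets under an unadjusted p of 0.05, both lower, where 1.58% of all probe sets were; limma's adjusted p was 0.9995 for each. The suffix of this probe set marks possible hybridization to more than 1 transcript.

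Each of the 3 de novo genes thus had its own order of lines. NT-3 was lowest for Dnmt3b, and NT-1 was lowest for Dnmt3l and, tied with NT-2, for the brightest Dnmt3a probe set. By the brightest probe set of each gene, no line was above the clone in Dnmt3a, Dnmt3b or Dnmt3l. All 3 lines lay below it for Dnmt3b and Dnmt3l, as they did for 26.7% of all genes. The result for Dnmt3a depends on the probe set: 1460324_at lay above the clone in all 3 lines, and 1423065_at in NT-3. The plot of pairwise differences shows these values by line.

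**Figure D2:**
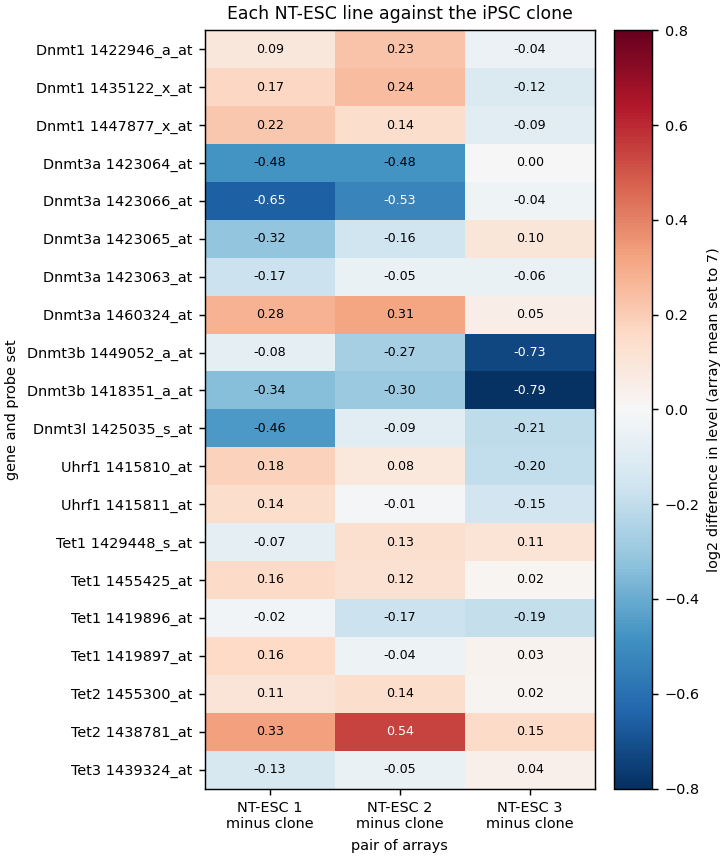
Log2 difference in level (colour and printed value, array mean set to 7) of each NT-ESC line minus the iPSC clone (columns) for the 20 probe sets (rows, by gene). Each cell compares 1 array with 1 array. The bluest cells are both Dnmt3b probe sets in NT-3, at -0.73 and -0.79, and Dnmt3a 1423066_at in NT-1, at -0.65.

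The maintenance pair was close between the lines and the clone. For Dnmt1, the enzyme that copies methylation at replication, probe set 1422946_a_at stood at 10.91, 11.05 and 10.77 in NT-1, NT-2 and NT-3, against 10.82 in the clone. Probe set 1435122_x_at stood at 10.11, 10.19 and 9.83 in the lines, against 9.95 in the clone, and 1447877_x_at at 9.12, 9.04 and 8.81, against 8.90. On all 3, NT-1 and NT-2 lay above the clone and NT-3 below it. The mean differences were 0.09, 0.10 and 0.09 (SE 0.12, 0.15 and 0.13, limma, adjusted p = 0.937, 0.946 and 0.944). The _x_ suffix marks probes that may cross-hybridize, so those readings are less certain.

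Uhrf1, which brings DNMT1 to hemimethylated DNA, was like Dnmt1 lowest in NT-3. Probe set 1415810_at stood at 11.16, 11.06 and 10.78 in NT-1, NT-2 and NT-3, against 10.98 in the clone. Probe set 1415811_at stood at 10.81, 10.65 and 10.51 in the lines, against 10.67 in the clone. NT-3 was the lowest array and NT-1 the highest on each, whereas Dnmt1 1422946_a_at and 1435122_x_at were highest in NT-2. The mean differences were 0.02 ± 0.16 and -0.01 ± 0.13 (SE, limma, adjusted p = 0.992 and 0.997). The first changed sign to -0.056 without NT-1 and -0.0060 without NT-2, and the second changed sign to 0.063 without NT-3. NT-3 was the lowest array for 8 of the 20 probe sets, among them all 7 of Dnmt1, Uhrf1 and Dnmt3b, while it lay below the other arrays in 26.2% of all probe sets. Those 7 are repeated readings of the same few genes, so the count of 8 is not one of independent values.

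Among the erasers, Tet1, a main 5-methylcytosine oxidase of mouse ESCs, was nearly level. Probe set 1429448_s_at stood at 11.89, 12.09 and 12.07 in NT-1, NT-2 and NT-3, against 11.96 in the clone, and 1455425_at at 11.85, 11.82 and 11.72, against 11.70. Probe set 1419896_at stood at 10.12, 9.97 and 9.95 in the lines, against 10.14 in the clone. The 4 Tet1 probe sets differed on average by -0.13 to 0.10 log2, and the largest range of any of them over the 4 arrays was 0.20. The last, 1419897_at, was the 1 probe set of the 20 below the median level, at 6.71, 6.51 and 6.58 in the lines and 6.55 in the clone.

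Tet2, the other TET oxidase that is well expressed in mouse ESCs, was lowest in the clone by both probe sets. Probe set 1438781_at stood at 9.68, 9.89 and 9.50 in NT-1, NT-2 and NT-3, against 9.35 in the clone. Probe set 1455300_at stood at 10.18, 10.21 and 10.09 in the lines, against 10.07 in the clone. The gap was wider on the first: the mean differences were 0.34 ± 0.15 and 0.09 ± 0.09 (SE, limma, adjusted p = 0.857 and 0.914). NT-2 was highest on both, and NT-3 lay nearest to the clone. For NT-2 against the other 3 arrays, 1438781_at was the 1 of 20 probe sets under an unadjusted p of 0.05, higher by 0.38, where 1.44% of all probe sets were (limma, adjusted p = 0.999). NT-2 was also the array with the highest feeder marker mean and the widest 3′ minus 5′ level difference of the Actb control, 0.42 against 0.28 in NT-1, 0.29 in NT-3 and 0.22 in the clone. The part of feeder RNA or RNA quality in the Tet2 values was not tested.

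Tet3, the TET enzyme best known from the oocyte and zygote, was read by 1 probe set. 1439324_at stood at 7.36, 7.44 and 7.53 in NT-1, NT-2 and NT-3, against 7.49 in the clone. The lines lay on both sides of the clone, with a mean difference of -0.05 ± 0.10 (SE, limma, adjusted p = 0.964).

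**Figure D3:**
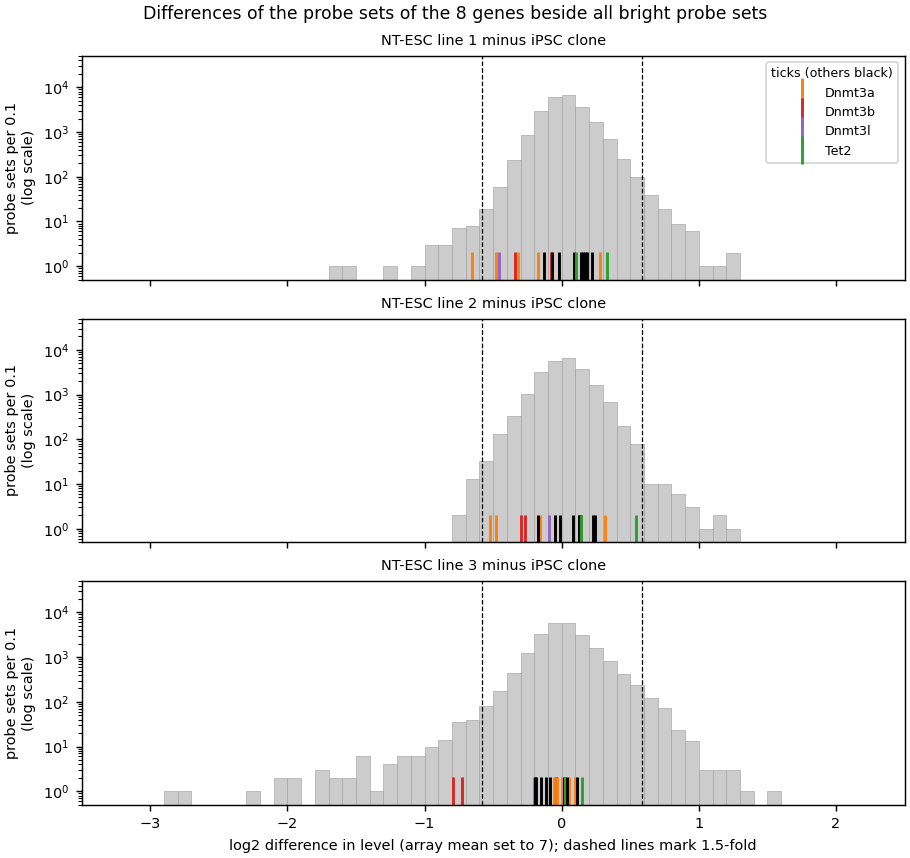
Distribution of the log2 difference in level (x axis, array mean set to 7) of each NT-ESC line minus the iPSC clone over all bright probe sets (grey bars, probe sets per 0.1, log scale on the y axis). Ticks mark the 19 bright probe sets of the 8 genes, drawn at a fixed height. The dashed lines mark 1.5-fold. Dnmt3a 1423066_at in NT-1 and both Dnmt3b probe sets in NT-3 lie outside them.

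Probe sets of one gene are repeated readings of the same RNA, and 6 of the genes had more than 1. All probe sets of Dnmt1, Dnmt3b and Tet2 lay on one side of the clone by their mean over the lines, which is 3 of 6 genes, against 44.5% of the 9010 genes with more than 1 probe set. Averaged over the lines, Dnmt1 agreed most closely, with an SD of 0.0040 log2 between its 3 mean differences. By line its probe sets were less close. They differed from the clone by 0.09, 0.17 and 0.22 in NT-1, 0.23, 0.24 and 0.14 in NT-2, and -0.04, -0.12 and -0.09 in NT-3. Dnmt3a agreed least, with 4 probe sets lower and 1 higher and an SD of 0.24 between them. Of the 463 genes with 5 probe sets, 19.9% had all on one side. Tet1 had 3 probe sets higher and 1 lower, and Uhrf1 had 1 of each.

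Line by line, 4 of the 6 genes had all probe sets on one side of the clone in NT-1, 3 in NT-2 and 4 in NT-3, against 42.6%, 38.3% and 47.9% of the 9010 genes. Dnmt3b lay below the clone and Tet2 above it in every line. In NT-3 all 3 Dnmt1, both Uhrf1 and both Dnmt3b probe sets lay below the clone. In NT-1 all 3 Dnmt1 and both Uhrf1 probe sets lay above it. The Dnmt3a split was the same in NT-1 and NT-2, with 4 probe sets lower and 1 higher in each, while in NT-3 there were 2 lower, 2 higher and 1 equal to the clone in the deposited values. Tet1 had 2 probe sets higher and 2 lower in both NT-1 and NT-2, and 3 higher and 1 lower in NT-3. Uhrf1 had 1 of each in NT-2.

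By the fixed rule, the genes nearest in pattern to the 3 members with the widest range were found by the root mean square distance between levels centred over the 4 arrays. For Dnmt3b they were Tmem79 (distance 0.012), Rinl (0.036) and Nif3l1 (0.052), from 1499 candidates. For Dnmt3a they were Lysmd2 (0.076), Dab1 (0.082) and Cul5 (0.087), from 3875 candidates. For Dnmt3l they were H2-D1 (0.018), Tmem241 (0.022) and Castor2 (0.049), from 4174 candidates. With 4 arrays from 4 cell lines, a near pattern describes these arrays only.

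Other genes of the pathway were read from 6 lists of 78 genes, of which 70 were measured, with 1 probe set per gene. None passed limma's test, and 4 higher and 1 lower had an unadjusted p under 0.05, where 3.26% of all 18193 genes were higher and 1.9% lower at that limit. All 3 lines lay above the clone for 28 of the 70 and below it for 12, against 24.7% and 26.7% of all 18193 genes. Each gene is set against the same 1 iPSC array, so these counts are not independent. Probe sets of level 10 and over had a median difference of 0.027 across the array, and those from 8 to 10 one of 0.028. The median was -0.013 from level 6 to 8 and -0.030 under level 6. Most of the 70 genes were bright, while the shares over all genes take in dim ones. The part of that offset in these counts was not tested.

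The supply of methyl groups and of 2-oxoglutarate, the cosubstrate of TET enzymes, had 8 of 13 measured genes above the clone in all 3 lines and 1 below. Of all genes, 24.7% were above and 26.7% below. The list's median difference was 0.089, against -0.0031 over all genes. All 13 genes were bright, whereas these values over all genes take in dim ones. Idh1, the cytosolic isocitrate dehydrogenase that makes 2-oxoglutarate, stood at 10.43, 10.47 and 10.68 in NT-1, NT-2 and NT-3, against 10.18 in the clone, a difference of 0.35 ± 0.12 (SE, limma, adjusted p = 0.849). Ogt, the glycosyltransferase that binds TET proteins, stood at 10.49, 10.46 and 10.19 in the lines, against 10.04 in the clone. Idh2, the mitochondrial isocitrate dehydrogenase, differed by 0.24 and Mthfd1, a folate enzyme, by 0.20. For these 4 genes all lines lay above the clone.

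Base excision repair, which completes demethylation after TDG, had 7 of 12 genes above the clone in all lines and 2 below. Of all genes, 24.7% were above and 26.7% below. The list's median difference was 0.13, against -0.0031 over all genes. All 12 genes were bright here too, whereas these values over all genes take in dim ones. Polb, the repair polymerase, stood at 8.82, 8.77 and 9.19 in NT-1, NT-2 and NT-3, against 8.73 in the clone, and Parp1, a strand break sensor, at 12.05, 11.98 and 12.13, against 11.87. Polb and Neil3 lie on chromosome 8, as do Ctcf of the cofactor list and the pluripotency marker Zfp42. The 9 enzyme genes lie on other chromosomes. In NT-3, Polb, Neil3 and Ctcf differed from the clone by 0.46, 0.23 and 0.35, and each was highest there. Zfp42 differed by 0.17, 0.15 and 0.13 in NT-1, NT-2 and NT-3. Any part of the chromosome in these values was not tested. Nthl1, a glycosylase, differed by 0.15 and Lig3, a DNA ligase, by -0.15. Leaving NT-3 out, the list's median was 0.081.

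The cofactors and guides of methylation had 6 of 17 genes above the clone in all lines and 5 below, with a median difference of -0.0014. Of all genes, 24.7% were above and 26.7% below. Prdm14, a repressor of Dnmt3b in mouse ESCs, stood at 8.97, 9.03 and 8.76 in NT-1, NT-2 and NT-3, against 8.67 in the clone, and was nearest to the clone in NT-3. Its difference was 0.25 ± 0.12 (SE, limma, adjusted p = 0.858). Smchd1, a chromatin protein needed for methylation of the inactive X chromosome, differed by 0.21, Ctcf by 0.18 and Zfp57, which protects methylation at imprinted regions, by 0.18. The methyl-CpG readers had 3 of 8 genes above and 1 below, with a median of -0.024; Mbd4, a reader that is also a glycosylase, and Mbd1 each differed by 0.17, Zbtb33 by -0.08 and Mbd2 by 0.06.

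The deaminase and Gadd45 list had 2 of 6 genes above the clone in all lines and 0 below, with a median of 0.041. Of all genes, 24.7% were above and 26.7% below. Gadd45b, a stress response gene that has been linked to demethylation, stood at 8.96, 8.97 and 9.12 in NT-1, NT-2 and NT-3, against 8.58 in the clone, a difference of 0.43 ± 0.10 (SE, limma, adjusted p = 0.849). Its relative Gadd45g stood at 7.75, 8.14 and 7.47 in the lines, against 8.13 in the clone, with NT-2 level with the clone. Apobec3 differed by -0.09 and Apobec1 by 0.06.

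Germ line genes that are silenced by promoter methylation in many cells had 2 of 14 genes above the clone in all lines and 3 below. Of all genes, 24.7% were above and 26.7% below. The list's median was -0.020. Mael, a piRNA pathway gene, stood at 8.74, 8.94 and 7.89 in NT-1, NT-2 and NT-3, against 9.19 in the clone, and was lowest in NT-3. Tex19.1, which helps repress transposons, stood at 10.61, 10.78 and 10.57 in the lines, against 11.07 in the clone, a difference of -0.42 ± 0.11 (SE, limma, adjusted p = 0.849). Ddx4, a germ cell RNA helicase, stood at 8.98 to 9.08 in the lines, against 8.70 in the clone, and Sycp3, a protein of the meiotic chromosome axis, at 7.78, 7.84 and 7.80, against 7.56. These genes lay on both sides of the clone, and no direction held for the list.

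**Figure D4:**
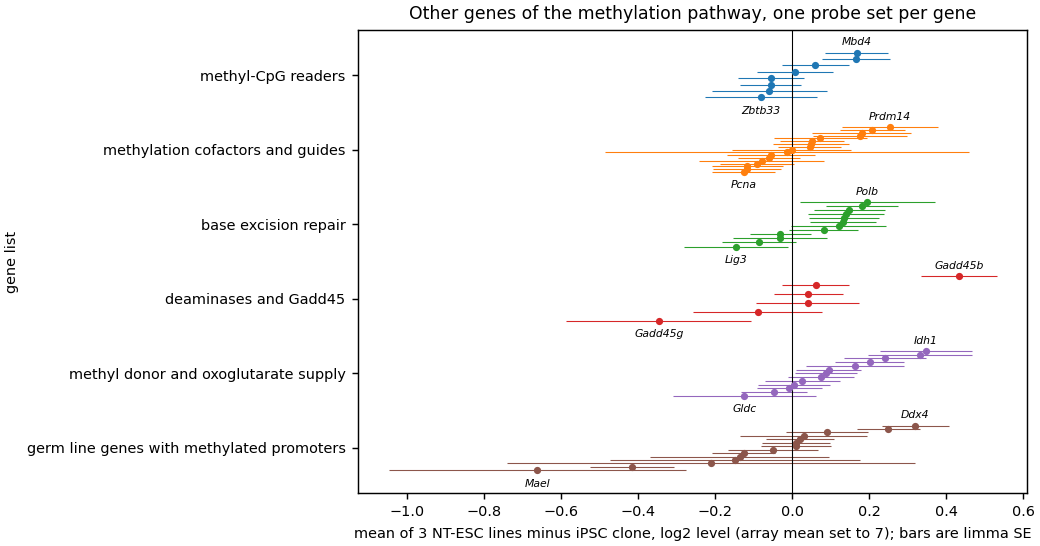
Mean of the 3 NT-ESC lines minus the iPSC clone in log2 level (x axis, array mean set to 7) for the measured genes of 6 pathway lists (y axis), with 1 probe set per gene; bars are limma SEs and the lowest and highest gene of each list are named. No gene passed limma's test after adjustment; Gadd45b at 0.43 and Mael at -0.66 are the ends of the range.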

How the data were processed

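Biotin-labelled RNA of each line was hybridized to 1 Affymetrix array, per the labels' protocols. How the arrays were normalized and summarized is not given in the sources used here. As deposited by the authors, log2 values cover 45101 probe sets, 64 of them controls. Turned back from log2, the values of every array averaged 1, so they were taken as ratios to the array mean, and levels were rebuilt as 7 times the ratio. Differences would be 14.3% smaller had 6 been assumed, and 12.3% larger for 7.86, where the top signal meets the 16-bit ceiling of 16; the p-values stay as they are.

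Probe sets were named where the platform annotation gave 1 gene (34945; 932 gave several and 9160 none); RefSeq GRCm38.p6 held the gene IDs of 34741. Limma 3.58.1 in R 4.3.3 (two-sided, threshold 0.05 after Benjamini-Hochberg adjustment over 45037 probe sets) was fitted on all 4 arrays for the lines against the clone and for each line against the rest. Single pairs of arrays have no test. Lists and pattern distances used the probe set with the highest mean per gene. Named are all probe sets of the 9 genes, up to 4 genes per list by size of difference, and 3 genes nearest in pattern. The listed genes on chromosome 8 are named as well. The members, the lists and the fits of each line against the rest were chosen with earlier results of these data known. Arrays are few, which limits the precision. Alternatives covered scale, normalization, dim probe sets, probe set choice, variance prior, fold limit and left-out arrays.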

Additional observations from a re-analysis of the deposited data

How the results depend on the processing

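None of the 155 differences recomputed for the 20 probe sets under the alternatives for the NT-ESC lines against the clone passed limma's test (smallest Benjamini-Hochberg adjusted p = 0.71), and 5 of them changed sign, in 3 probe sets. Uhrf1 1415810_at, 0.024 as reported, was -0.014 after quantile normalization and ran from -0.056 to 0.13 with 1 line left out; Uhrf1 1415811_at ran from -0.084 to 0.063 and Tet1 1419897_at from -0.0067 to 0.092. The cause was not tested. Without NT-3 the lines lay above the clone for 8 probe sets rather than 4, and the range over left-out lines was 5 to 8; the count below was 6 to 9 and was 6 with all lines. With a line left out, fewer lines have to agree. Over all probe sets the share above was 23.8% with all lines and 32.7% without NT-3. The share below was 27.5% and 36.2%. No such share is given for leaving out NT-1 or NT-2. The count of probe sets at least 1.5-fold from the clone was 0 in NT-1 with an assumed mean of 6 or at 2-fold, 2 in NT-2 with the mean of 7.86, and 0 in NT-3 at 2-fold, which follows from how those limits are set. The 47 probe sets called for NT-3 against the other arrays were 0 on the deposited log2 ratios, 84 with 1 probe set per gene, 168 with the mean of probe sets of a gene, and 0 without any 1 of the other arrays, with 1 residual degree of freedom; none of the 20 probe sets was called in any of these. Leaving out lines for the counts of lines on one side and for probe set agreement, and leaving out arrays in the fits of 1 line against the rest, were chosen after seeing the data. No paired analysis was possible because all lines are set against the same 1 iPSC array. The number of arrays, signals without detection calls, and the assumed mean limit every size given here.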
